A study of Homo sapiens with 24 samples.

Results

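The regions described here lay deep inside messenger RNAs, more than 1000 nt from the start of the transcript, and were called as enriched for N1-methyladenosine (m1A). Peaks of 10 lists were joined into regions wherever they shared at least 1 nt of a RefSeq transcript. Joined peaks can have summits at different places, so calls of a region in several lists need not mark 1 site. A region was kept when it lay on an mRNA transcript (NM_ accession), in both replicate lists of at least 1 condition, with a median summit beyond 1000 nt and at most at 110000 nt. Of 38299 merged regions, 4669 were on mRNAs and in both lists of a condition, and 774 of these (16.6%) were deep. They lay on 717 transcripts of 441 named genes, besides 8 regions on 7 transcripts without a symbol. Deep regions were chosen by their calls and summit positions, so counts of calls are a description of the lists and carry no test.

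All lists came from HEK293T, a human embryonic kidney cell line kept in medium with serum. The 5 conditions were ALKBH3 knockout cells (KO), wild-type cells (WT), wild-type cells given 50 µM hydrogen peroxide for 30 min (H2O2), wild-type cells kept without serum for 16 h (Starve), and untreated wild-type cells (UT), which are labelled as the control of the H2O2 and Starve cells. Each had 2 replicates of anti-m1A immunoprecipitated (IP) polyadenylated RNA. Input samples were labelled for each condition, and demethylase-treated samples for KO and WT. The labels do not say whether replicates came from separate cultures, so tests measure only the spread between these lists, or how many clones the KO cells represent.

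m1A carries a methyl group on the base-pairing edge of adenosine, which blocks pairing and stalls reverse transcriptase. It is abundant in transfer and ribosomal RNA, where dedicated methyltransferases place it, and ALKBH3 is a demethylase that can remove it from RNA. In mRNA it is best known from the 5′ end and the region around the start codon, so a call far downstream stands outside that common location. The peak files count positions along the transcript, and the ends of the coding sequence are not given in the sources used here. Whether a deep region lay in coding sequence or in the 3′ untranslated region was therefore not determined.

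Summits of the 774 deep regions lay at a median of 2028.5 nt from the transcript start (quartiles 1462 and 3027). The region of CTBP2, a transcriptional corepressor, shows how close some lie to the limit: its summit was at nt 1001 on NM_001329 and at nt 998, just outside, on NM_001290214. RHOB, a small GTPase (nt 1002), and ANP32E, a histone chaperone (nt 994), were the next regions inside and outside. Beyond 2000 nt lay 396 regions, 58 of them beyond 5000 nt. Merged regions were 101 to 708 nt wide, with a median of 184 nt.

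The farthest summit, at nt 96866 on NM_001243962 of HLA-DQB1, a class II histocompatibility chain, stood apart from the rest. Further regions on the same transcript reached nt 992893, and what these coordinates refer to was not tested. Taking each gene by its most often called region, USP24, a deubiquitinase (NM_015306), had a region at nt 8312 to 8516. A less often called region of SPEN, a transcriptional repressor, had its summit at nt 9870 on NM_015001; it is named after its value was seen.

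Isoforms of 1 gene repeat a signal, so regions beyond 5000 nt are counted by named gene first. They lay on 9 of 89 genes in KO (10.1%, 95% Wilson interval 5.41 to 18.1%), among them SON and SPTAN1, and on 3 of 37 in WT (8.11%, 2.80 to 21.3%). In H2O2 they lay on 2 of 59 genes (3.39%, 0.935 to 11.5%), in Starve on 9 of 191 (4.71%, 2.50 to 8.71%) and in UT on 11 of 152 (7.24%, 4.09 to 12.5%). The UT count includes HLA-DQB1, at the coordinate given above. The intervals, which cover counting error only, overlapped between all 5 conditions. By region, isoforms included, the shares were 16.5% in KO (23 of 139), 7.84% in WT (4 of 51), 4.44% in H2O2 (4 of 90), 5.05% in Starve (16 of 317) and 4.91% in UT (13 of 265). Median summit positions were close to each other, at 2008.5 nt in KO, 1940 nt in WT, 2018.75 nt in H2O2, 2001 nt in Starve and 1985 nt in UT.

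**Figure D1:**
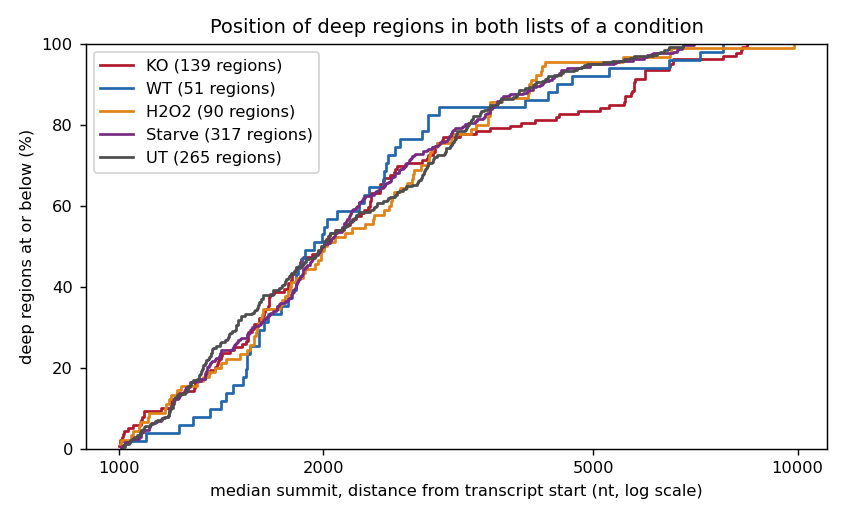
Cumulative share of deep regions called in both lists of a condition (y axis, percent) against the distance of the median summit from the transcript start (x axis, nt, log scale), with 1 line per condition. The lines cross 50% near 2000 nt in all 5 conditions, and the KO line runs below the others at 5000 nt, where isoforms of a gene count separately. The HLA-DQB1 region of UT lies outside the plotted range.

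The share of deep peaks differed between lists before any region was chosen. Of the mRNA peaks of a list, 8.53% and 9.70% had a deep summit in the KO lists, against 28.0% and 8.94% in the WT lists. It was 43.5% and 31.7% in the H2O2 lists and 46.2% and 47.0% in the Starve lists, against 43.2% and 46.6% in the UT lists. The first WT list stood apart from the second WT list and from both KO lists.

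KO lists averaged 9.12 ± 0.830% deep peaks and WT lists 18.5 ± 13.5% (SD, n = 2 each), a difference of -9.36 percentage points (two-sided exact permutation p = 0.667). Without the first WT list the difference was 0.182 percentage points. H2O2 lists averaged 37.6 ± 8.39% and UT lists 44.9 ± 2.42%, a difference of -7.32 percentage points (exact permutation p = 0.667, n = 2 each). Starve lists averaged 46.6 ± 0.571% and UT lists 44.9 ± 2.42%, a difference of 1.71 percentage points (exact permutation p = 0.667, n = 2 each). With 2 lists against 2 the smallest p this test can give is 0.33, so no difference could pass 0.05.

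**Figure D2:**
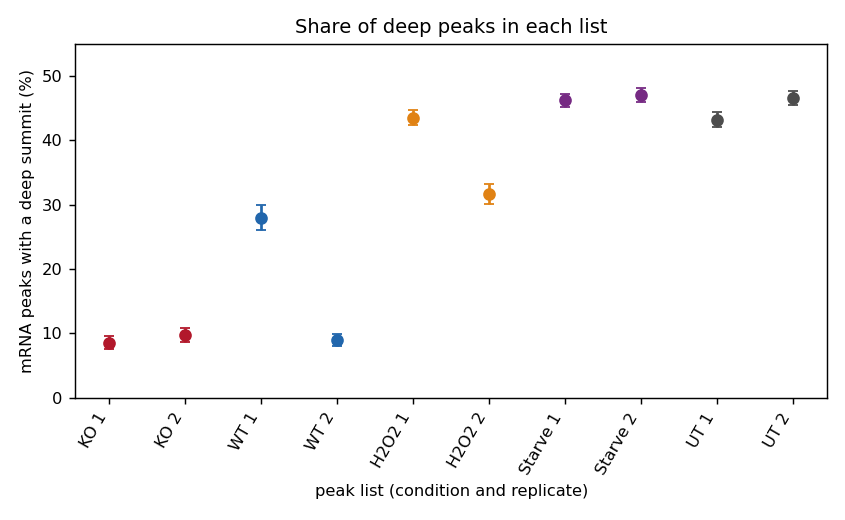
Share of the mRNA peaks of each list whose summit lies beyond 1000 nt and at most at 110000 nt (y axis, percent), with 95% Wilson intervals as bars and 1 point per list. Both KO lists and the second WT list sit between 8.53% and 9.70%, the first WT list at 28.0%, and the other 6 lists between 31.7% and 47.0%.

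The share of regions called in both replicates was lower for deep regions than for regions near the 5′ end in each of the 5 conditions. Calls in both lists are what the rule used and isoforms share a signal, so this is a description with no test. Of deep mRNA regions in either KO list, 30.7% were in both (139 of 453), against 56.0% of regions with a summit up to 300 nt. The share over all regions, wherever they lay, was 51.6% in KO, 21.6% in WT, 8.57% in H2O2, 9.38% in Starve and 9.96% in UT. For deep regions it was 6.35% in WT (51 of 803), 2.21% in H2O2 (90 of 4067), 3.77% in Starve (317 of 8398) and 3.85% in UT (265 of 6887). For regions up to 300 nt it was 28.4% in WT, 17.3% in H2O2, 21.2% in Starve and 21.0% in UT. Starve and UT gave the most deep regions from the lists as deposited, which differ in length. With the 2175 top peaks of each list the order turned round, with 44 deep regions in KO, 29 in WT, 25 in H2O2, 14 in Starve and 12 in UT.

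**Figure D3:**
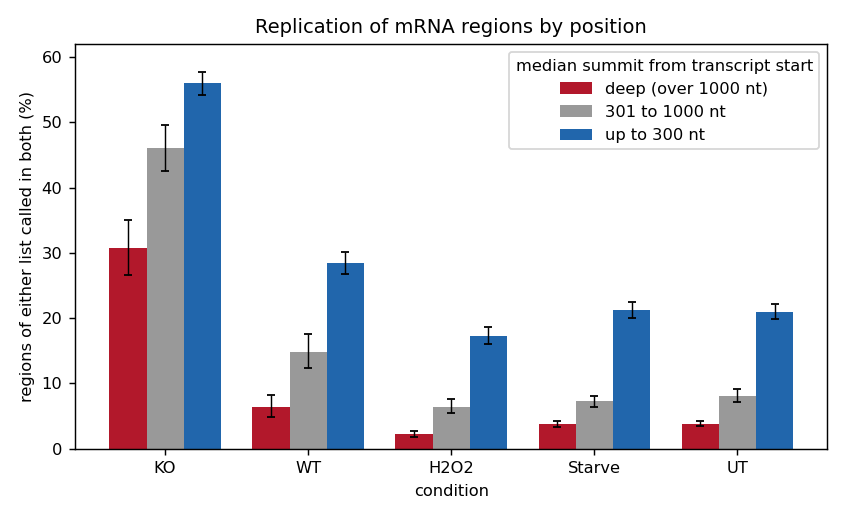
Share of the mRNA regions in either list of a condition that were called in both (y axis, percent), by condition and by the median summit's distance from the transcript start, with 95% Wilson intervals. Deep regions (red) are lowest in each condition, from 2.21% in H2O2 to 30.7% in KO, against 17.3% to 56.0% for regions up to 300 nt (blue).

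The summits of the replicates also lay farther apart in deep regions than in regions up to 300 nt. In KO the median gap was 18 nt for deep regions and 8 nt for regions up to 300 nt, and in WT 15 and 12 nt. In H2O2 it was 37.5 against 17.5 nt, in Starve 42 against 20 nt, and in UT 36 against 16 nt. Regions between those up to 300 nt and the deep ones had a median gap of 8.5 nt in KO and 17.5 nt in WT. Their gap was 37.5 nt in H2O2, 39.5 nt in Starve and 29 nt in UT. It lay below the deep value in KO, Starve and UT, equalled it in H2O2 and exceeded it in WT. Outside KO a wide gap was thus not particular to deep regions. The replicated deep peaks of the H2O2, Starve and UT lists had a median length of 100 to 108 nt. In 8 of 90 deep regions in H2O2, 16 of 317 in Starve and 15 of 265 in UT, the replicate peaks did not touch and were joined only through a peak of another list. This was so for 1 of 139 regions in KO and 0 of 51 in WT. In H2O2, Starve and UT the deep shares were 8.89%, 5.05% and 5.66%, against 5.35%, 4.72% and 4.48% for regions up to 300 nt. Regions between those and the deep ones had 5.15%, 8.76% and 7.05%, the highest share in Starve and UT. In KO the deep share was 0.719% against 0.234% up to 300 nt, and in WT 0 against 0.515%. Replicate peaks that did not touch were thus not particular to deep regions.

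Deep regions were mostly called in few lists. Of the 774 regions, 602 (77.8%) were in 2 or 3 lists, whereas 33.8% of 3087 replicated mRNA regions up to 300 nt were. At least 5 lists held 79 deep regions (10.2%), against 46.5% of the regions up to 300 nt. In 710 regions the calls replicated in 1 condition alone, of which 281 were in Starve, 230 in UT, 111 in KO, 58 in H2O2 and 30 in WT. The same split was not counted over other regions, so it is not read as a trait of deep ones. Only 1 region replicated in all 5 conditions, on NM_001080542 (nt 2709 to 3013), a transcript without a symbol in the gene table. Its fold enrichment over local background, the peak caller's own value, was 3.85 and 3.36 in KO, 34.8 and 4.29 in WT, 37.9 and 45.0 in H2O2, 24.1 and 34.5 in Starve, and 33.2 and 22.5 in UT. The first WT list stood far above the second, and both KO lists and the second WT list were below all others.

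EEF1A2, an elongation factor that brings aminoacyl-tRNA to the ribosome, and ZIC2, a zinc finger transcription factor of neural development, were the named genes in most lists, with 9 each. The EEF1A2 region (NM_001958, nt 1583 to 1982) had a pileup, the coverage at the summit, of 900 and 886 in KO, 297 and 494 in WT, 352 and 175 in Starve, and 469 and 311 in UT. In H2O2 it was called in the second list only, with a pileup of 442. Pileup has no stated normalization, so its size is not compared between lists. The fold of EEF1A2 ranked above 90.5% of peaks or more in the KO and WT lists, but above 23.6% to 73.3% in the other 5 lists that held it.

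ZIC2 (NM_007129, nt 1588 to 1923) had folds of 3.34 and 3.76 in KO, 2.99 and 4.93 in WT, 2.19 and 3.58 in Starve, and 2.85 and 2.90 in UT. In H2O2 its fold was 2.04 in the first list, and the second did not call it. These folds ranked low in the H2O2, Starve and UT lists, at the 4.42 to 24.1 percent of the list.

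The regions next in number of lists, in 8 each, were those of TBKBP1, an adaptor of the kinase TBK1, and ZFP36L2, which binds AU-rich elements and promotes mRNA decay. TBKBP1 (NM_014726, nt 1842 to 2112) was in both lists of KO, WT, H2O2 and Starve and in neither UT list. Its folds were 4.68 and 4.17 in KO, 3.38 and 6.54 in WT, 5.46 and 2.38 in H2O2, and 1.57 and 2.27 in Starve. ZFP36L2 (NM_006887, nt 1438 to 1739) was in both lists of WT, H2O2 and Starve and in 1 list each of KO and UT, with folds of 2.40 to 5.04.

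Among regions in 7 lists was that of PABPN1, the nuclear poly(A)-binding protein (NM_004643, nt 1266 to 1654). It had the highest pileups of these genes, 1000 and 1020 in H2O2, 1174 and 1053 in Starve, and 915 and 429 in UT. PABPN1 was not called in KO, and in WT only the second list held it, with a pileup of 383 and a fold of 1.87. ANO8, of the anoctamin membrane proteins (NM_020959, nt 1598 to 2080), had the same pattern, called in both lists of H2O2, Starve and UT, in the second WT list and in no KO list. SOX4, an HMG-box transcription factor (NM_003107, nt 1734 to 2010), was in both lists of WT, H2O2 and Starve, in the second UT list and in no KO list, with folds of 1.72 to 3.22.

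ATXN2L, a stress granule protein (NM_007245, nt 3398 to 3618), was in both lists of KO, H2O2 and UT, with folds of 5.51 and 4.01 in KO, 5.53 and 9.93 in H2O2, and 3.04 and 2.73 in UT. The first Starve list also held it, with 8.48. CDC42EP2, an effector of the GTPase CDC42 (NM_006779, nt 1126 to 1327), and UNC93B1, which carries Toll-like receptors to endosomes (NM_030930, nt 1765 to 2281), were in both lists of KO and Starve. The UNC93B1 summits lay at nt 2156 and 2195 in KO but at nt 1825 in both Starve lists, so the merged region joins separate places. SCAF1, which binds the tail of RNA polymerase II (NM_021228, nt 1712 to 2060), was in both WT and both Starve lists, and FBRSL1 (NM_001142641, nt 2570 to 3103) in both KO and both WT lists. The FBRSL1 folds were 2.33 and 1.69 in KO, with summits at nt 2718 and 2749. In WT they were 5.06 and 4.55, with summits at nt 2923 and 2906, so the folds belong to different places in the merged region.

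**Figure D4:**
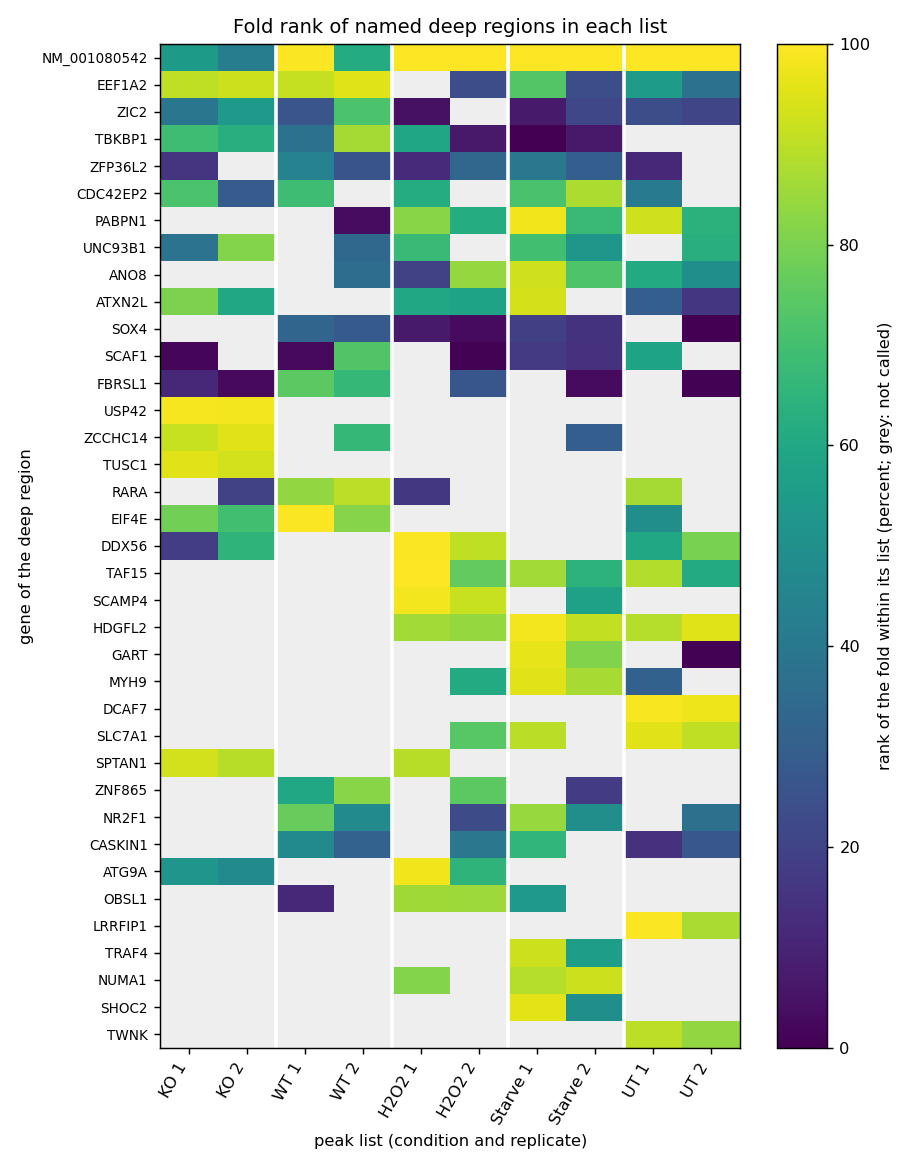
Rank of the fold enrichment within its list (colour, percent of peaks with a lower fold) for deep regions of 1 transcript without a symbol and 36 named genes (rows) in the 10 lists (columns), with grey where the list holds no peak. Regions in many lists fill the upper rows with mixed ranks. Some regions named for high folds in 1 condition, such as USP42 in KO and DCAF7 in UT, are grey elsewhere. Others, such as DDX56 and TAF15, named for H2O2, were also called in further conditions.

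Within KO and WT the deep regions ranked below regions near the 5′ end. Among regions in both lists, the median fold rank within the list was 32.9 and 36.9 percent for deep regions in KO, against 63.6 and 62.8 percent for those up to 300 nt. In WT it was 44.0 and 41.1 against 67.0 and 72.8. In H2O2 the order was the other way, 54.5 and 57.9 for deep regions against 44.0 and 43.9 for those up to 300 nt. Starve and UT gave 40.9 and 50.0 for deep regions in Starve and 48.4 and 41.1 in UT, against 59.6 and 44.1 and against 58.7 and 58.1. The second Starve list thus had the order of the H2O2 lists and the first did not.

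KO and WT lists address which sites depend on ALKBH3. Of 238 deep regions in any of these 4 lists, 106 (44.5%) of 65 genes had both KO calls and no WT call, named KO-alone here, and 25 (10.5%) of 18 genes had both WT calls and no KO call. Over all regions those calls made up 16.2% and 4.08%. The rule kept only replicated regions, so the higher shares follow from the choice. Given as a share of regions in both KO lists, 76.3% of deep regions were in neither WT list, against 44.0% of those up to 300 nt. For regions in both WT lists it was 49.0% against 28.6%. All 4 lists held 12 deep regions of 9 genes, out of 492 regions at any position. Without the first WT list, which stood apart, 112 KO-alone and 225 WT-alone regions were counted, since 1 WT list then sufficed.

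The KO-alone region with the highest lower fold belonged to USP42, a deubiquitinase (NM_032172, nt 2331 to 2538), with pileups of 226 and 194 and no peak in any other list. TUSC1, a tumour suppressor candidate (NM_001004125, nt 1122 to 1369), was likewise found in the KO lists only, with folds of 8.89 and 7.13. SPTAN1, the alpha chain of nonerythroid spectrin (NM_001130438, nt 6420 to 6660), had 7.73 and 6.33, and was also in the first H2O2 list. ZCCHC14 had 7.28 and 8.26 in KO, against 4.57 in the second WT list and no call in the first, and 4.46 in the second Starve list. Of the 65 genes with a KO-alone deep region, 39 had no mRNA peak at all in WT. The same count was not made over other genes and the lists differ in length, so it describes these lists only.

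In WT alone were regions of ZNF865, a zinc finger protein (NM_001195605, nt 1236 to 1642, folds 4.16 and 5.93), the nuclear receptor NR2F1 (NM_005654, nt 1414 to 1637, 5.22 and 3.70) and the scaffold protein CASKIN1 (NM_020764, nt 3814 to 4102, 3.75 and 3.13). Each was also called in lists of wild-type cells from the stress experiment. EIF4E, the cap-binding initiation factor (NM_001130679, nt 1506 to 1699), was in all 4 lists, with folds of 5.38 and 4.52 in KO and 24.8 and 5.87 in WT. The retinoic acid receptor RARA (NM_000964, nt 1719 to 1905) had 2.59 in the second KO list and no call in the first, against 6.12 and 7.21 in WT. Of the 18 genes with a WT-alone deep region, 8 had no mRNA peak in KO, again without a count over other genes.

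H2O2 and UT lists address oxidative stress. Of 507 deep regions in any of the 4 lists, 51 (10.1%) of 34 genes were in both H2O2 lists alone. In both UT lists alone were 190 (37.5%) of 111 genes. Over all regions these calls made up 1.25% and 2.93%, and again the rule sets the higher shares. Of regions in both H2O2 lists, 56.7% of deep ones were in neither UT list, against 32.5% of all and 27.9% up to 300 nt. Of regions in both UT lists, 71.7% of deep ones were in neither H2O2 list, against 43.9% and 34.3%. With the 2175 top peaks of each list the order of the counts was reversed, with 16 in both H2O2 lists alone and 7 in both UT lists alone. SCAMP4, a secretory carrier membrane protein (NM_079834, nt 1549 to 1927), had pileups of 169 and 283 in H2O2 and 73 in the second Starve list. ATG9A, an autophagy membrane protein (NM_024085, nt 2042 to 2281), had 149 and 123 in H2O2, and was also in both KO lists with 97 and 88. OBSL1, a cytoskeletal adaptor (NM_001173408, nt 3173 to 3520), had 109 and 238 in H2O2, with 48 in the first WT list and 47 in the first Starve list. In UT and not in H2O2 were DCAF7, a WD-repeat adaptor (NM_005828, nt 4535 to 4841, pileups 157 and 105), and LRRFIP1 (NM_004735, nt 1802 to 1926, 167 and 58).

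Of the 34 genes with an H2O2-alone deep region, 5 had no mRNA peak in UT. Of the 111 genes with a UT-alone region, 30 had none in H2O2. No such count was made over other genes, and the lists differ in length. All 4 lists held 20 deep regions of 10 genes, out of 359 regions at any position. Among these genes were DDX56 and TAF15, which are named for their high folds in H2O2, so that values above those of UT restate that choice. DDX56, a nucleolar RNA helicase (NM_019082, nt 1964 to 2279), had folds of 18.5 and 23.6 in H2O2, against 4.53 and 6.31 in UT, and was in both KO lists with 2.65 and 4.27. TAF15, an RNA-binding protein of the FET family (NM_139215, nt 1167 to 1874), had 20.5 and 14.7 in H2O2, against 6.97 and 4.89 in UT. By rank within the list, TAF15 stood at 99.7 and 76.1% in H2O2 and at 88.5 and 61.1% in UT, so the first list of each condition ranked above the second and the ranges of the groups overlapped. The DDX56 ranks were 99.3 and 90.6% in H2O2 and 59.7 and 79.8% in UT.

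Starve lists were set against the same UT lists. Of 667 deep regions in any of the 4 lists, 233 (34.9%) of 143 genes were in both Starve lists alone. In both UT lists alone were 190 (28.5%) of 109 genes. Over all regions these calls made up 2.50% and 2.01%, and again the rule sets the higher shares. Of regions in both Starve lists, 73.5% of deep ones were in neither UT list, against 43.5% of all and 32.5% up to 300 nt. Of regions in both UT lists, 71.7% of deep ones were in neither Starve list, against 39.0% and 28.7%. TRAF4, a signalling adaptor (NM_004295, nt 1465 to 1646), had pileups of 79 and 71 in Starve and no peak in another list. NUMA1, which organises spindle poles (NM_001286561, nt 4462 to 4728), had 69 and 154 in Starve and 87 in the first H2O2 list, and SHOC2, a scaffold of RAS signalling (NM_007373, nt 1065 to 1179), had 94 and 65. TWNK, the mitochondrial DNA helicase (NM_021830, nt 1513 to 1681), had 78 and 55 in UT, which alone held it, as did DCAF7 and LRRFIP1. Of the Starve-alone genes 23 had no mRNA peak in UT, and of the UT-alone genes 28 had none in Starve. Other genes were not counted in this way.

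All 4 of these lists held 21 deep regions of 11 genes, out of 453 regions at any position. HDGFL2, a chromatin-associated growth factor homologue (NM_001001520, nt 1031 to 1393), had folds of 11.3 and 15.0 in Starve, 8.66 and 18.9 in H2O2, and 6.98 and 8.81 in UT. HDGFL2, GART and MYH9 are named for their high folds in Starve, so that higher folds than in UT restate that choice. By rank within the list, the second UT list placed HDGFL2 between the Starve lists. GART, an enzyme of purine synthesis (NM_001136006, nt 975 to 1176), had folds of 9.97 and 12.5 in Starve, against 1.82 in the second UT list and no call in the first. MYH9, the heavy chain of nonmuscle myosin (NM_002473, nt 4247 to 4572), had 9.56 and 14.1 in Starve, against 3.08 in the first UT list and no call in the second. SLC7A1, a cationic amino acid transporter named for its folds in UT (NM_003045, nt 5898 to 6298), had 14.1 in the second H2O2 list and 7.27 in the first Starve list, against 9.25 and 7.49 in UT.

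A 5′ region, replicated in at least 1 condition with a summit up to 300 nt on any transcript of the gene, accompanied the deep region in 124 of 441 genes (28.1%, 95% Wilson interval 24.1 to 32.5%). Among the 8381 other genes with an mRNA peak, 22.6% (21.7 to 23.5%) had such a region. Genes are not replicates, and how strongly each was expressed was not tested. A 5′ peak in any 1 list was found for 297 of 441 genes (67.3%). A replicated region between 300 and 1000 nt was present in 66 genes, and 271 genes (61.5%) had no replicated mRNA region with a summit up to 1000 nt.

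Pairing within 1 condition was counted as well. A replicated 5′ region of the same condition stood beside the deep region in 16 of 89 genes in KO (18.0%), 5 of 37 in WT (13.5%), 6 of 59 in H2O2 (10.2%), 22 of 191 in Starve (11.5%) and 10 of 152 in UT (6.58%). Among other genes with an mRNA peak in either list of the condition the share was 44.2% in KO, 21.2% in WT, 9.13% in H2O2, 10.9% in Starve and 10.7% in UT. Over all 8822 genes with an mRNA peak in any list it was 12.7% in KO, 5.93% in WT, 4.45% in H2O2, 7.58% in Starve and 6.94% in UT. In KO and WT the share of deep genes thus lay below the first of these values and above the second. EEF1A2, ZFP36L2, ANO8, FBRSL1, TAF15, HDGFL2, RARA, DCAF7 and MYH9 had a replicated 5′ region. TBKBP1, PABPN1, ATXN2L, TUSC1, SPTAN1, DDX56 and SCAMP4 had no 5′ peak in any list.

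Of the 8822 named genes with an mRNA peak, 441 (4.999%) had a deep region. Chromatin modifiers and remodellers gave 10 of 86 (11.6%), among them the methyltransferases KMT2B, EHMT1 and DOT1L, the demethylase KDM1A and the remodelling subunit ARID1B. KMT2B (NM_014727, nt 1177 to 1332) had folds of 7.74 and 10.2 in H2O2, and KDM1A (NM_001009999, nt 1668 to 1872) 7.34 and 3.70 in UT. EHMT1 (NM_024757, nt 3751 to 3997) had 2.96 and 3.63 in KO, and ARID1B (NM_017519, nt 956 to 1264) 3.25 and 4.22 in UT. Cytoskeletal and motor proteins gave 8 of 72 (11.1%), with MYH9, SPTAN1, the actin crosslinker ACTN1 (3.05 and 2.88 in KO) and the kinesin KIF7 (2.03 and 3.46 in WT).

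DEAD and DEAH box helicases gave 4 of 40 (10.0%): DDX56, DHX40 (9.88 and 5.24 in UT), DHX15 (3.09 and 12.2 in Starve) and DHX30 (4.94 and 4.14 in Starve). Splicing factors and hnRNP proteins gave 7 of 71 (9.86%). HNRNPA2B1 (NM_031243, nt 839 to 1307) had a high pileup, 849 and 356 in H2O2, 673 and 628 in Starve and 457 in 1 UT list, with folds of 1.53 to 3.39. SON (NM_138927, nt 5886 to 6037) had pileups of 869 and 725 in KO, 495 in the first WT list and 918 in the first Starve list, with folds of 1.69 to 2.28. SNRNP70, of the U1 particle, had folds of 3.55 and 4.32 in UT, and SF3B3, of the U2 particle, 3.69 and 2.80 in WT.

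Translation factors gave 5 of 56 (8.93%). Besides EEF1A2 and EIF4E these were EIF5 (3.23 and 3.94 in UT), EEF1D (3.98 and 3.37 in Starve) and EIF3B. The list of cell cycle and replication genes gave 8 of 98 (8.16%), among them the transcription factors E2F1 (7.37 and 15.1 in Starve) and E2F4 (6.47 and 3.37 in UT) and the proliferation marker MKI67 (5.35 and 6.93 in Starve). CDC42EP2 and CDC42BPB entered that list by symbol, although both act with the GTPase CDC42 and not in the cell cycle. Ubiquitin-conjugating enzymes and USP deubiquitinases gave 4 of 64 (6.25%), USP42, USP24, UBE2D2 and UBE2G2.

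Solute carriers gave 7 of 163 (4.29%) and ZNF genes 6 of 179 (3.35%), both below the share of all genes. SLC25A35, a mitochondrial carrier (NM_201520, nt 1743 to 1887), had folds of 5.44 and 5.01 in KO, against 4.05 and 3.56 in WT. SLC4A2, an anion exchanger, had 4.30 and 3.99 in H2O2, and SLC35E2B 4.84 and 16.0 in Starve. The ZNF genes with values in most lists were ZNF777 (6.84 and 3.19 in H2O2) and ZNF579 (3.25 and 3.13 in KO), and ZNF282 had 8.79 and 5.22 in Starve.

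Of the ribosomal proteins, 0 of 63 cytosolic and 1 of 63 mitochondrial genes (MRPL49, 3.90 and 3.24 in Starve) had a deep region. Transcript lengths are not given in the sources used here, so how many of these mRNAs reach past the limit was not tested. RNA methylation genes gave 1 of 19, ZC3H13, a subunit of the m6A writer complex, at low folds of 1.39 and 2.49 in Starve. Of the markers of other cell types only COL1A1, a fibroblast collagen, had any mRNA peak, and its deep region (NM_000088, nt 2535 to 2644) was called in both UT lists, with pileups of 57 and 28.

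Genes on chromosome 19 made up 73 of the 441 genes (16.6%, 95% Wilson interval 13.4 to 20.3%), against 7.16% of all genes with an mRNA peak and 8.14% of genes with a replicated 5′ region and no deep one. The promoter sequences given for 365 of these genes, from 250 nt before to 50 nt after the start, had a median GC content of 69.0%, against 66.7% over all genes with a peak. For genes with a 5′ region and no deep one it was 68.7%. These values describe the genes, since the sequence of the deep regions themselves was not used here.

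More than 1 deep region lay on a single transcript in 36 genes. CAD, the enzyme that starts pyrimidine synthesis, had one at nt 4029 to 4159 in both Starve lists and one at nt 5612 to 5718 in both UT lists. CC2D1A, a scaffold and transcriptional repressor, had one at nt 1198 to 1328 in Starve and one at nt 2664 to 2929 in KO and UT. Several deep regions also repeat between isoforms, such as those of RARA on 4 transcripts and of ACTN1, SPTAN1 and SON on 3 each.

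A separate set of deposited windows gives the coverage of KO and WT regions in the IP and after demethylase treatment, each scaled within a region. A region was looked up in a genotype only if both lists of that genotype called it, and was used if it overlapped a single run of windows. This left 97 deep regions of 67 genes in KO, and 39 of 31 genes in WT. The treated coverage was not replicated: in 770 of 773 transcripts with shared windows the treated values of the first and second KO file differed only by a constant factor, and in 349 of 350 for WT. For the IP coverage this held for 0 of 775 and 0 of 354 transcripts. The treated signal was therefore counted once for each genotype and set beside each of the 2 IP libraries.

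As a summary of shape, the centre of mass of the treated coverage was taken minus that of the IP coverage, negative values lying toward the 5′ end. It lay toward the 5′ end against both IP libraries in 47 of 97 deep regions in KO and toward the 3′ end in 31. In WT these counts were 19 and 12 of 39. The median shift was small, -4.59 and -0.403 nt in KO and -4.09 and -7.48 nt in WT, beside a window step of 5 nt. For regions up to 300 nt the shares toward the 5′ end were 38.9% in KO and 44.5% in WT, against 48.5% and 48.7% for deep regions. Toward the 3′ end they were 42.1% in KO and 27.9% in WT, against 32.0% and 30.8% for deep regions. Of 11 deep regions used in both genotypes, the shift had the same sign in all 4 comparisons in 4 and opposite signs in KO and WT in 3.

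TBKBP1 was among the first, with -13.5 and -13.2 nt in KO and -21.6 and -32.6 nt in WT. EEF1A2 was among the second, with -28.1 and -31.1 nt in KO and 31.0 and 31.4 nt in WT. The values of USP42, looked up in KO only because no WT list called it, were -24.7 and -20.3 nt. With 1 treated signal for each genotype there is no replicate check of these shifts.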

How the data were processed

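Peak lists and windowed coverage of HEK293T libraries were used as deposited. Trim Galore, HISAT, MACS2 and hg19 appear, with no version or order, in the submitters' processing notes. Per the file headers each replicate has its own MACS2 list on RefSeq transcripts. Pileup in the deposited lists is coverage signal where a peak is highest, with no normalization named, fold enrichment is the authors' ratio over local background, and −log10 p-values and −log10 q-values are also the authors' own. The deposited windows (10 nt, steps of 5 nt) hold coverage signal that the authors scaled within each region. Their 4 difference columns were not used. Lists were assigned by file naming; descriptions of UT samples name the Starve lists, so comparisons with UT rest on that naming. The lists held 61237 peaks in all, 2175 to 11362 each, and the labels and headers give no read depth.

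Peaks were merged in Python 3.11.15 with pandas 2.3.3, and shares carry 95% Wilson intervals (scipy 1.17.1). A region in a list takes its strongest peak. The merging was tested on simulated lists. Gene symbols came from a RefSeq table of GRCh38.p14, used for names, chromosomes and promoter base content, and matched 15607 of 15756 mRNA transcripts (99.1%). Members and gene lists were chosen with earlier results of these data known. Named genes were, by their region in the most lists, the 12 in most lists, for each condition and each 1-sided call the 3 whose lower replicate fold was highest, up to 4 of each gene list, the regions next to the limit, the farthest, and those with most regions. Some genes that this rule picked are not reported here. Alternatives were another overlap, fold, q-value, position limits, 1 transcript per gene, equal list length, a replicate block and leaving out each list.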

Additional observations from a re-analysis of the deposited data

Results flagged for a closer look

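Peaks past the upper position limit form a signal that the counts above leave out. On mRNA transcripts 19 regions in both replicates of a condition had a median summit beyond 110000 nt, on transcripts of HLA-DQB1 (9 regions, in up to 8 lists), HLA-DRB4 (6 regions, in up to 7 lists) and RABL2B (4 regions, in up to 5 lists). What these coordinates refer to was not tested.

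For 3 named regions the treated-minus-IP shift of window coverage went one way against both IP libraries in KO and the other way in WT, and the difference was not tested. The KO mean minus the WT mean was -60.8 nt for EEF1A2, -9.27 nt for EIF4E and 47.6 nt for SLC25A35. On another EIF4E transcript, NM_001968, the WT shifts had opposite signs (-5.08 and 3.53 nt). Each genotype has 1 treated signal, and the windows of KO and WT span different stretches.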

How the results depend on the processing

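Values are given in the order of all deep regions, then KO, WT, H2O2, Starve and UT (both lists), then KO alone and WT alone, H2O2 alone and UT alone, and Starve alone and UT alone. With a fold of 4 or more the counts were 234, then 20, 13, 48, 109 and 68, then 12 and 9, 29 and 49, and 89 and 49. A limit of 2000 nt gave 396, then 70, 24, 46, 159 and 132, then 53 and 14, 26 and 105, and 122 and 95. With 1 transcript per gene there were 461, of which 87 in KO, 58 in H2O2, 189 in Starve and 151 in UT, then 61 and 16, 33 and 110, and 137 and 109. With the 2175 top peaks of each list there were 108, then 44, 29, 25, 14 and 12, with 31 KO alone, 16 and 7, and 10 and 7. That setting put KO first and Starve and UT last, and H2O2 alone above UT alone. A limit of 500 nt gave 255 in KO, 79 in WT and 143 in H2O2, 192 KO alone, 38 WT alone and 77 H2O2 alone. An overlap of 50% of the shorter peak left 601 deep regions and 32 H2O2 alone. The share of deep genes with a 5′ region was 15.4% with a fold of 4 or more, 18.2% with equal list length, 65.8% where a 5′ region in 1 list sufficed, and 0 with a 5′ limit of 60 nt.

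Leaving out a list lets 1 list suffice, so counts rise by construction. All deep regions ranged from 887 to 5252, the regions of a condition from 273 to 316 in KO, 286 to 568 in WT, 1141 to 3012 in H2O2, 3846 to 4870 in Starve and 3143 to 4013 in UT, and the 5′ share from 29.2% to 34.8%. KO alone ranged from 112 to 272, WT alone from 30 to 529 (225 without WT replicate 1, 529 without WT replicate 2), H2O2 alone from 54 to 2618 against UT alone from 202 to 3705, and Starve alone from 261 to 4350 against UT alone from 202 to 3497. The difference in the share of deep peaks ranged from -18.9 to 0.182 percentage points for KO minus WT, where leaving out WT replicate 1 turned its sign. It ranged from -13.2 to -1.39 for H2O2 minus UT and from 0.00111 to 3.42 for Starve minus UT. With a limit of 2000 nt the Starve minus UT difference was -0.132. With the replicate block the differences stayed -9.36, -7.32 and 1.71 percentage points (exact sign-flip permutation p = 1, 1 and 0.5), which cannot fall below 0.5, so it changed no call. The labels do not say that a number pairs samples, and with 2 pairs this was not decided.

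A −log10 q-value of 5 or more kept each count within 1.5 times. Read depth limits what a missing call means, since a region at low coverage has no value in a list.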
